A study of Mus musculus with 9 samples.

Results

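Creb3l3, Creb3 and Creb3l2 encode members of the CREB3 family, bZIP transcription factors that are made as membrane proteins of the endoplasmic reticulum (ER). The 3 genes were taken by name from a deposited table of 54532 genes, and all 3 were among the 11858 genes that reached an FPKM of at least 1 in at least 3 of the 9 libraries and were tested. FPKM scales fragments to gene length and to library size, so levels given in FPKM may be compared between genes. The other CREB3 genes of the mouse, Creb3l4 and Creb3l1, are given beside them.

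The study measured RNA in primary hepatocytes, liver cells isolated by 2-step perfusion from C57BL/6 mice and kept in culture. It asked how hepatocytes lacking cyclooxygenase-2 (COX-2, gene Ptgs2) respond to ER stress. The WT cells came from COX-2fl/fl/Alb-Cre- littermates, so the controls carry the floxed alleles without the Cre transgene, and the CKO cells came from COX-2fl/fl/Alb-Cre+ mice, in which the albumin promoter limits Cre to hepatocytes. Cells were held for 2 h in 1% serum and then given vehicle (WT DMSO) or 6 μmol/L tunicamycin (WT Tu and CKO Tu) for 24 h, with 3 libraries a group. CKO cells given vehicle were not analysed here, so the response of CKO cells to tunicamycin was not measured. The comparison of CKO Tu with WT DMSO changes genotype and treatment together, and the 3 comparisons share libraries. Nothing in the labels ties each library to its own animal, and p-values therefore cover only the spread between these libraries, which may be technical.

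Tunicamycin blocks the first step of N-linked glycosylation, which leaves unfolded glycoproteins in the ER. CREB3 factors sit in the ER membrane until they are carried to the Golgi, where site-1 protease (Mbtps1) and site-2 protease (Mbtps2) cut them and free an amino-terminal fragment that enters the nucleus; ATF6 is handled in the same way. The liver member, CREB-H (Creb3l3), is known for driving genes of lipid and glucose metabolism, iron control and the acute phase. CREB3, also called Luman, is tied to ER-associated degradation and Golgi stress, and CREB3L2, also called BBF2H7, drives Sec23a and other secretory genes in cartilage. Their activity depends on cleavage, which mRNA levels do not report.

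The libraries held 14897358 to 16001484 fragments. The WT and CKO libraries differed in sex against labels that call all mice male. All 6 WT libraries had 0 fragments from 4 Y-linked genes and 20659 to 33657 from Xist, whereas the CKO libraries had 3486 to 3633 Y-linked fragments and 0 to 3 from Xist. Genotype and sex therefore cannot be told apart in any comparison with CKO Tu. Ptgs2 had 0 to 13 fragments in WT libraries and 1 to 2 in CKO libraries (exact permutation test of CKO Tu against WT Tu, two-sided p = 0.1, the smallest that 3 against 3 can give), so its depth gives little check of the knockout. The 8 hepatocyte markers summed to 15800 to 17500 FPKM in WT DMSO, 15600 to 17200 in WT Tu and 12900 to 13600 in CKO Tu, with none at 0. Most of each sum was Alb, at means of 14418, 14277 and 10276 FPKM in the same order. The 8 endothelial markers summed to 10.2 to 11.2, 3.85 to 5.25 and 2.96 to 3.34 FPKM in the same order. The 7 Kupffer cell markers summed to 75.1 to 92.7, 96.9 to 115 and 92.7 to 107 FPKM, nearly all of it Cd68 (means of 83.1, 107 and 100.4), with Vsig4 at 0. The others were scarce and had fewer fragments in the tunicamycin groups: Lyz2 had 94, 9 and 10 fragments a group, Csf1r 70, 24 and 28, Mpeg1 125, 45 and 48, Adgre1 24, 7 and 0, and Clec4f 4, 2 and 0. The 7 stellate markers reached 0.433 FPKM at most in WT and 1.72 to 2.18 in CKO Tu, nearly all of it Reln (150, 129 and 2095 fragments a group); Pdgfrb, Col1a1 and Col3a1 had 0 to 1 fragments in CKO Tu. The 5 cholangiocyte markers summed to 22.7 to 25.9, 22.8 to 24.3 and 34.3 to 38.3 FPKM, and the 2 that were tested, Spp1 and Sox9, were both higher in CKO Tu than in WT Tu. The others were scarce and did not rise with them: Krt19 had 60, 39 and 42 fragments a group, Krt7 11, 4 and 3, and Epcam 63, 66 and 34. The 6 lymphocyte and neutrophil markers summed to 1.43 to 1.69, 4.80 to 6.45 and 3.03 to 4.56 FPKM, mostly Camp, with S100a8 and S100a9 at 0 in CKO Tu. Replicate 1 stood apart in both WT groups: its counts differed from those of the other 2 with a chi-square of 9.46 to 11 per degree of freedom in WT DMSO and 19.6 to 21.6 in WT Tu, where the other pair gave 3.51 and 3.73. The share of mitochondrial fragments was 4.39% in WT DMSO replicate 1 and 6.87% in WT Tu replicate 1, the lowest and the highest of the 9 libraries.

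Creb3l2 and Creb3 were higher after tunicamycin in WT cells, and Creb3l3 did not pass the test. Thus 2 of the 3 members were called, both higher and both without overlap between groups, where 33.6% of all tested genes were called, 17.7% higher and 15.9% lower, and 46.7% did not overlap. As deposited, 52.7% of those calls were higher, and 31.5% were with scaling to total fragments. In CKO Tu against WT Tu, Creb3l2 was higher again and was the 1 member called, beside 38.3% of all tested genes (18.7% higher and 19.6% lower). Against WT DMSO, all 3 members were called in CKO Tu, with Creb3l2 and Creb3 higher and Creb3l3 lower and no overlap for any of them. Of all tested genes 49.5% were called in that comparison, 25.3% higher and 24.2% lower, and 63% did not overlap. Calls are from limma on log2(FPKM + 1) with Benjamini-Hochberg adjustment over all tested genes, at an adjusted p below 0.05, and changes are differences on that scale, which understates the change of low genes.

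**Figure D1:**
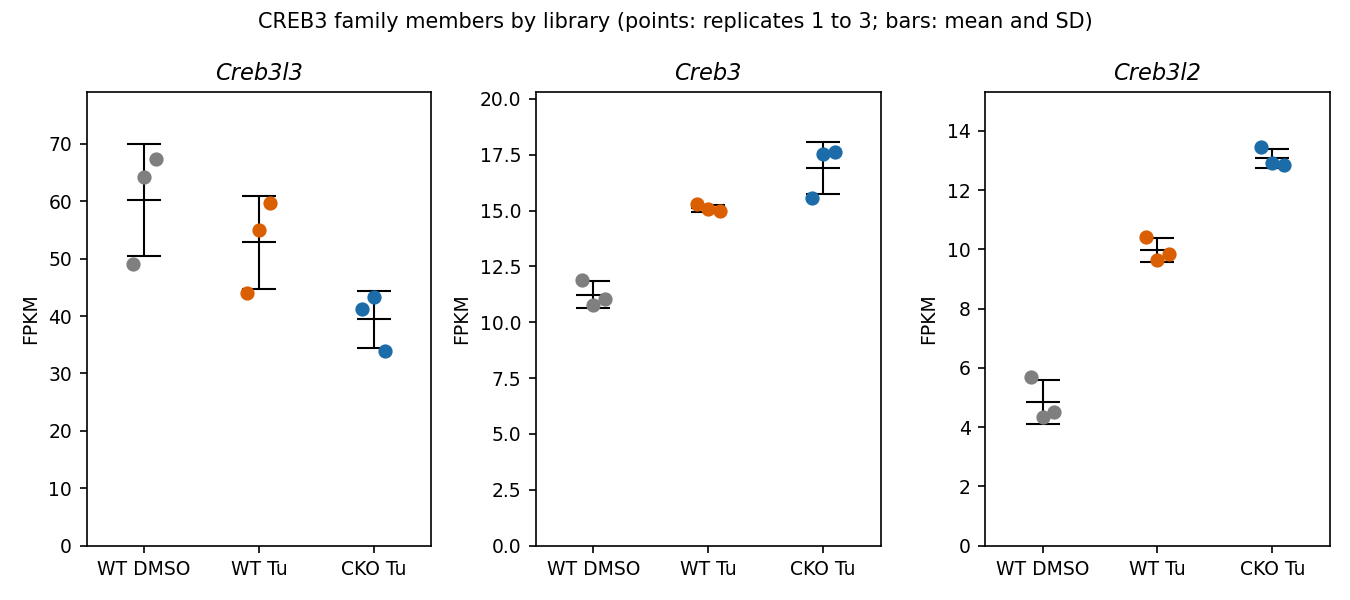
FPKM of Creb3l3, Creb3 and Creb3l2 in each of the 9 libraries (points, replicates 1 to 3 from left to right) with the mean and SD of each group (bars, n = 3). Creb3l3 falls from a mean of 60.2 to 39.5 FPKM across the groups with wide spread in WT, whereas Creb3 and Creb3l2 step up from WT DMSO to WT Tu without overlap.

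Creb3l3 (ENSMUSG00000035041) lies on the minus strand of chromosome 10 at chr10:81084324-81098874 in mm10. It was the most abundant CREB3 mRNA in every library. Its level was 49.0, 64.2 and 67.4 FPKM in WT DMSO replicates 1 to 3, 43.9, 54.9 and 59.7 in WT Tu, against 41.3, 43.3 and 33.9 in CKO Tu. The 2 WT groups overlapped, replicate 1 being the lowest library in each, and all 3 CKO Tu libraries lay below every WT library. The change from WT DMSO to WT Tu was -0.18 ± 0.15 (SE) on the log2 scale (limma adjusted p = 0.39), with a 95% interval of -0.53 to 0.16, which spans 0.693 to 1.12 times on the FPKM + 1 scale. This estimate moved with the same libraries, to -0.06 without WT Tu replicate 1 and -0.32 without WT DMSO replicate 1, and to -0.05 with the trend on GC content removed, and it was called in none of these.

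In CKO Tu, mean Creb3l3 was 39.5 ± 4.97 FPKM (SD, n = 3) against 52.8 ± 8.07 in WT Tu, a ratio of 0.747. The log2 difference was -0.41 ± 0.15 and missed the threshold (limma adjusted p = 0.064) although the groups did not overlap, as was so for 51.2% of all tested genes. This result sits at the threshold: without WT Tu replicate 1 the difference was -0.53 (limma adjusted p = 0.021), without WT DMSO replicate 1 it was -0.41 (limma adjusted p = 0.038), and over all alternatives the adjusted p ran from 0.01 to 0.19. Against WT DMSO, whose mean was 60.2 ± 9.82 FPKM, Creb3l3 fell by 0.59 ± 0.15 in CKO Tu (limma adjusted p = 0.011), with a 95% interval of -0.94 to -0.24. The summed hepatocyte markers were lower in CKO Tu too, as given above, but most of that sum was Alb. When each marker was tested in CKO Tu against WT Tu, 6 of the 8 rose and 1, Alb, fell. Thus 87.5% of them were called, beside 38.3% of all tested genes. In these bulk cultures fewer cells of a type and less RNA per cell cannot be told apart. The cholangiocyte markers Spp1 and Sox9, and sex, also moved with CKO Tu, and their part in the Creb3l3 difference was not tested.

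The 250 bases before the outer start of Creb3l3 are shown because no searched motif occurs in them, in contrast to the other members below. RefSeq places them at chr10:81098873-81099122 of GRCm38.p6, the patch release of mm10, on the minus strand, and they are printed 5′ to 3′ on the gene's strand.
Creb3l3: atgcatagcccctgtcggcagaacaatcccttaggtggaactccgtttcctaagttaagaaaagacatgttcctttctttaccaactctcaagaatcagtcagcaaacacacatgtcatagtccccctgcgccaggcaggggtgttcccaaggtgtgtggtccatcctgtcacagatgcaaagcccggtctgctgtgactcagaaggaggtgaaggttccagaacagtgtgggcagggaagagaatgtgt

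Creb3l2 (ENSMUSG00000038648) lies on the minus strand at chr6:37327255-37442146. It had the largest change among the members in both comparisons with WT DMSO. Its level was 5.69, 4.35 and 4.51 FPKM in WT DMSO replicates 1 to 3, 10.4, 9.66 and 9.85 in WT Tu, against 13.5, 12.9 and 12.9 in CKO Tu, so the 3 groups formed 3 separate steps. Creb3l2 rose by 0.91 ± 0.09 (SE) on the log2 scale from WT DMSO to WT Tu (limma adjusted p = 7.9e-05), with means of 4.85 ± 0.733 and 9.98 ± 0.398 FPKM (SD, n = 3) and a ratio of 2.06. It was higher by a further 0.36 ± 0.09 in CKO Tu than in WT Tu (limma adjusted p = 0.01), where the mean was 13.1 ± 0.328 FPKM and the ratio 1.31. From WT DMSO to CKO Tu the change was 1.27 ± 0.09 (limma adjusted p = 5.1e-06) and the ratio 2.70. These 3 calls held in every alternative setting and with each library left out. The gene gave 519 to 1535 fragments a library, and the counting interval of a single library was within 91.6% and 109% of its value, less than the steps between groups.

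The 250 bases before the Creb3l2 start, at chr6:37442149-37442398 on the minus strand, hold TGACGT, the letters that the cAMP response element TGACGTCA and the UPR element core TGACGTGG share. It begins 196 bases before the start and is in capitals. These letters were added to the search after the sequences had been seen. They occur in 7.51% of all promoters and in 13.8% of the tested genes that RefSeq matched.
Creb3l2: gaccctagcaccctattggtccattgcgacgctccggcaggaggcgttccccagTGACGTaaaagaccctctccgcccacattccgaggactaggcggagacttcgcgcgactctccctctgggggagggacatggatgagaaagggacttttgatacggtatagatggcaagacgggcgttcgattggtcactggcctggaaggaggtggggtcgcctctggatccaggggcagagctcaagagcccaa

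Creb3 (ENSMUSG00000028466) lies on the plus strand at chr4:43562332-43567060. Its level was 11.9, 10.8 and 11.1 FPKM in WT DMSO replicates 1 to 3, 15.3, 15.1 and 15.0 in WT Tu, against 15.6, 17.5 and 17.6 in CKO Tu. All tunicamycin libraries lay above all vehicle libraries, and CKO Tu replicate 1 sat close to the WT Tu libraries. Creb3 rose by 0.40 ± 0.06 (SE) from WT DMSO to WT Tu (limma adjusted p = 0.0016), with means of 11.2 ± 0.589 and 15.1 ± 0.164 FPKM and a ratio of 1.34. Its difference between CKO Tu and WT Tu was 0.15 ± 0.06 and missed the threshold (limma adjusted p = 0.092). That difference was 0.21 without CKO Tu replicate 1 (limma adjusted p = 0.042), and over all alternatives its adjusted p ran from 0.036 to 0.25. From WT DMSO to CKO Tu, Creb3 rose by 0.55 ± 0.06 (limma adjusted p = 0.00013).

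Creb3 shares its first 360 bases with the 5′ end of Tln1, a talin gene on the opposite strand, and its last 133 bases with Gba2. The strand setting of the counting is not given in the sources used here, so in those bases fragments of Creb3 and of its neighbours cannot be told apart. Tln1 was at 26.0, 38.7 and 34.9 mean FPKM in WT DMSO, WT Tu and CKO Tu. Like Creb3 it was higher in WT Tu than in WT DMSO, but it was highest in WT Tu and Creb3 in CKO Tu. Gba2 was at 1.85, 2.15 and 2.90. The part of these neighbours in the Creb3 values was not tested.

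In the promoter windows of the other starts, ACGTGG, the letters that end the UPR element core, were found once for Creb3 and once for an inner start of Creb3l3. They occur in 8.31% of all promoters and in 14.2% of the tested genes that RefSeq matched. These letters too were added after the sequences had been seen. The Creb3 match begins 106 bases before the RefSeq start, at chr4:43562540-43562569 with its flanks, a stretch that GENCODE places inside the first exon of Creb3. The Creb3l3 match lies at chr10:81092578-81092607 with its flanks, at a further RefSeq start inside the gene. In the lines below the match is in capitals.
Creb3: atagcccccgggACGTGGcgcagcccagga
Creb3l3 inner start: tgggaggtggagACGTGGcaaaggctgtag
None of the members' windows held a full cAMP response element, a UPR element core or an ER stress response element (CCAAT and CCACG with 9 bases between), on either strand. For comparison, 1.79%, 0.676% and 0.119% of all 32851 RefSeq promoter windows hold these in turn, and 3.7%, 1.08% and 0.219% of the matched tested genes do. A missing match says only that the letters are not in the window.

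The 3 groups separated in the Creb3l3 and Creb3l2 shares of the family and not in its sum. Creb3l3 made up 72.5%, 79.6% and 79.8% of the summed FPKM of the 5 CREB3 genes in WT DMSO, 61.4%, 67.7% and 69.0% in WT Tu, against 57.2%, 57.7% and 51.2% in CKO Tu. The 3 groups did not overlap, and means were 77.3 ± 4.14%, 66.0 ± 4.06% and 55.4 ± 3.60% (SD, n = 3; two-sided exact permutation p = 0.1 for each pair of groups, the smallest 3 against 3 allow). Creb3l2 made up 6.38 ± 1.76%, 12.6 ± 1.70% and 18.4 ± 1.13% (exact permutation p = 0.1 for each pair). Creb3 made up 14.7 ± 2.53%, 19.1 ± 2.08% and 23.9 ± 2.61% (exact permutation p = 0.2 for WT Tu against WT DMSO, 0.1 for the others). Creb3l3 was 12.8 ± 3.60 times as abundant as Creb3l2 in WT DMSO, 5.32 ± 0.974 times in WT Tu and 3.02 ± 0.362 times in CKO Tu. The summed FPKM was 77.6 ± 8.85, 79.7 ± 7.56 and 71.1 ± 4.54 in the 3 groups (exact permutation p = 0.6 for WT Tu against WT DMSO and 0.3 for each comparison with CKO Tu). The order Creb3l3, Creb3, Creb3l2, Creb3l4, Creb3l1 was the same in every group, and the ranges of neighbouring genes in it did not overlap in any group.

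**Figure D2:**
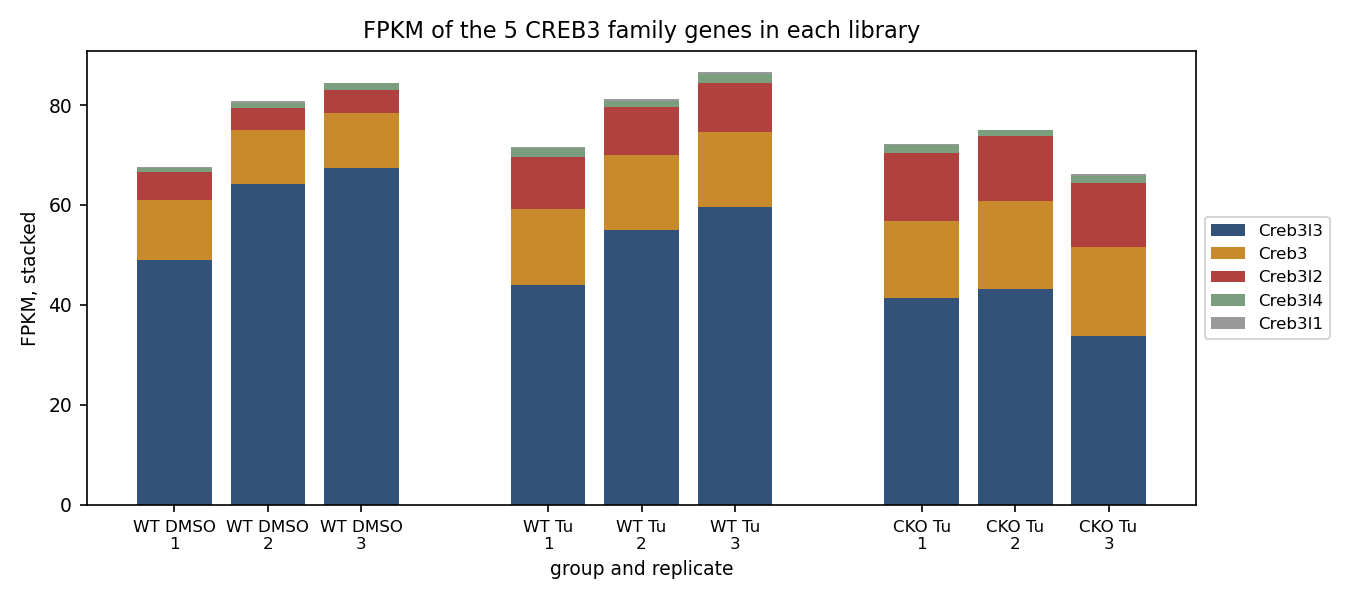
Stacked FPKM of the 5 CREB3 genes in each of the 9 libraries, by group and replicate. The Creb3l3 block takes its smallest share in CKO Tu and the Creb3l2 block its largest, while the bar height runs from 66.1 to 86.5 FPKM with no separation of the groups.

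Creb3l4, a family member known from prostate and other epithelia, was near 1 FPKM, at 1.11 ± 0.250, 1.52 ± 0.371 and 1.42 ± 0.261 in WT DMSO, WT Tu and CKO Tu (SD, n = 3). Its change from WT DMSO to WT Tu was 0.25 ± 0.15 (limma adjusted p = 0.23), with a 95% interval of -0.09 to 0.58. Creb3l1, known for collagen secretion in bone, had 4 to 15 fragments a library and was below the filter. Its FPKM did not differ detectably at this depth, with exact permutation p = 0.4 for WT Tu against WT DMSO and 0.5 for CKO Tu against WT Tu. Atf6, the ER stress sensor cut by the same proteases, was at 28.1, 23.9 and 24.4 FPKM in WT DMSO, 76.4, 56.5 and 55.8 in WT Tu, against 55.3, 57.2 and 56.4 in CKO Tu. Atf6 rose by 1.26 ± 0.12 under tunicamycin in WT cells (limma adjusted p = 7.6e-05), and its difference between CKO Tu and WT Tu was -0.14 ± 0.12 (limma adjusted p = 0.37). Its paralogue Atf6b was at 12.6, 13.0 and 11.7 mean FPKM and was called in no comparison. Atf6b gained a call in 2 of 21 alternatives in WT Tu against WT DMSO and in 3 of 21 in CKO Tu against WT Tu.

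Among the 48 genes that the deposited table annotates as bZIP, Creb3l3 ranked 8th by mean FPKM in WT DMSO, 12th in WT Tu and 15th in CKO Tu. This annotated class is not complete, since Crebl2, given below, is not in it. Creb3 ranked 23rd, 20th and 21st, and Creb3l2 ranked 28th, 24th and 24th. Of the 35 genes of this annotated class that passed the filter, 13 rose and 4 fell from WT DMSO to WT Tu, with a median change of 0.12 beside -0.002 for all tested genes. Thus 48.6% of them were called, beside the 33.6% of all tested genes. In CKO Tu against WT Tu 11 were higher and 7 lower, 51.4% beside 38.3%. The list of the soluble CREB group held 8 genes, which are bZIP relatives and the CREB coactivator Crtc2. From WT DMSO to WT Tu, 2 rose (Atf2 and Crem), 1 fell (Crebl2) and 5 were not called. Thus 37.5% of this list was called, near the 33.6% of all tested genes. The calls of Crem and Crebl2 were lost in 6 of 21 and 4 of 20 alternatives. Creb1, the founding member of that group, was at 3.40, 3.34 and 3.73 mean FPKM and was called in no comparison. Creb1 gained a call in 1 of 20 alternatives in WT Tu against WT DMSO.

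The genes that cut, bind or modify CREB3 factors moved unevenly. Of 14 such genes, 5 rose, 1 fell and 8 did not pass from WT DMSO to WT Tu, with a median change of 0.20; 6 were higher, 0 lower and 8 not passed in CKO Tu against WT Tu, with a median of 0.14 beside -0.002 for all tested genes. In both comparisons 42.9% of the list was called, near the 33.6% and 38.3% of all tested genes. The proteases that release the factors were called in no comparison: Mbtps1 was at 6.62, 6.59 and 6.18 mean FPKM in WT DMSO, WT Tu and CKO Tu, and Mbtps2 at 4.19, 4.58 and 4.07. Syvn1, the ER ubiquitin ligase reported to act on CREB-H, was at 15.2, 13.6 and 13.8 FPKM in WT DMSO, 104, 101 and 107 in WT Tu, against 122, 129.9 and 142 in CKO Tu. Syvn1 rose by 2.79 ± 0.07 under tunicamycin in WT (limma adjusted p = 5.6e-08) and was higher by 0.33 ± 0.07 in CKO Tu than in WT Tu (limma adjusted p = 0.0056). Sel1l, its adaptor, rose from a mean of 9.78 to 128 FPKM and was at 138 in CKO Tu, not called against WT Tu. Gsk3b, Sirt1 and Fitm2 were the other genes that rose in WT, the call of Fitm2 being lost in 3 of 21 alternatives.

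Hnf4a, the liver nuclear receptor that partners CREB-H at some genes, was the 1 gene of this list that fell in WT, and it was called in the opposite direction in CKO Tu. It was at 12.2, 10.3 and 11.2 FPKM in WT DMSO, 5.56, 7.05 and 6.69 in WT Tu, against 20.7, 20.2 and 18.3 in CKO Tu. The change was -0.72 ± 0.09 from WT DMSO to WT Tu (limma adjusted p = 0.00052) and 1.49 ± 0.09 from WT Tu to CKO Tu (limma adjusted p = 1e-05). Hnf4aos, antisense to Hnf4a, reached a mean of 0.767 FPKM at most. Crebzf and Crebrf, which encode partners that hold back Luman, were both higher in CKO Tu than in WT Tu, by 0.81 ± 0.09 (limma adjusted p = 0.00026) and 0.78 ± 0.12 (limma adjusted p = 0.0014). Crebzf stood at 11.8, 9.76 and 17.7 mean FPKM and Crebrf at 1.74, 2.56 and 5.07 in WT DMSO, WT Tu and CKO Tu. Ppara and Kat2b were also higher in CKO Tu than in WT Tu, whereas Hcfc1, the Luman cofactor, was called in no comparison and stood at 29.7, 27.7 and 30.4. Hcfc1 gained a call in 2 of 21 alternatives in WT Tu against WT DMSO and in 3 of 21 in CKO Tu against WT Tu.

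**Figure D3:**
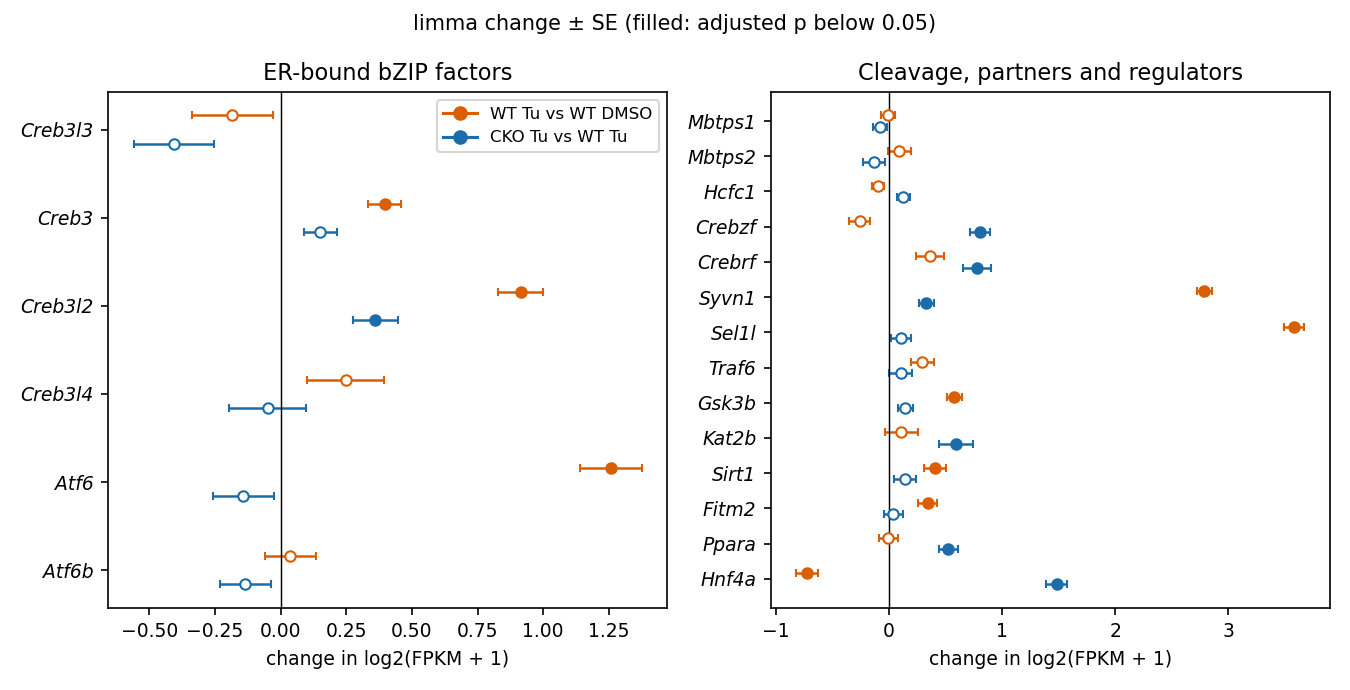
Change in log2(FPKM + 1) ± SE for the ER-bound bZIP factors (left) and for 14 genes that cut, bind or modify them (right), WT Tu against WT DMSO in orange and CKO Tu against WT Tu in blue; filled points have a limma adjusted p below 0.05. Syvn1 and Sel1l stand far to the right in orange, and Hnf4a lies on opposite sides of 0 in the 2 comparisons.

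Reported CREB-H target genes did not move as 1 group in WT cells. Of the 20 listed, 19 were tested, and from WT DMSO to WT Tu 4 rose, 6 fell and 9 did not pass, with a median change of -0.01 beside -0.002 for all tested genes; 52.6% were called, beside the 33.6% of all tested genes. Fgf21, a fasting hormone, was at 9.10, 5.68 and 6.86 FPKM in WT DMSO, 3.40, 3.74 and 4.63 in WT Tu, against 2.95, 2.24 and 2.28 in CKO Tu. Fgf21 fell by 0.72 ± 0.16 in WT (limma adjusted p = 0.0082), and its difference between CKO Tu and WT Tu of -0.49 ± 0.16 (limma adjusted p = 0.037) lost the call in 8 of 21 alternatives. Fads1 and Fads2, desaturases of polyunsaturated fatty acids, fell in WT by 0.37 ± 0.06 and 0.41 ± 0.08. Cpt1a, the entry enzyme of fatty acid oxidation, rose by 0.49 ± 0.08. The calls of Cidec, Apcs and Insig2 (higher) and of Apoc3, G6pc and Elovl5 (lower) were each lost in 7 to 12 of the 21 alternatives. The count of genes that rose ran from 1 to 4 over the alternatives, and the count that fell from 3 to 7. Apoc2, the gene left out by the filter, was at 0 in all 6 WT libraries and had 0 to 2 fragments in CKO Tu.

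In CKO Tu against WT Tu, 8 of the 19 CREB-H targets were higher, 5 lower and 6 not passed, with a median of -0.02; 68.4% were called, beside 38.3% of all tested genes. Hamp, which encodes the iron hormone hepcidin, was at 3.26, 2.79 and 3.96 FPKM in WT Tu but 111, 105 and 65.0 in CKO Tu, and was higher by 4.42 ± 0.34 (limma adjusted p = 3.2e-05). G6pc and Pck1, enzymes of glucose production, stood at 1.30 and 5.60 mean FPKM in WT Tu but 14.7 and 18.4 in CKO Tu, higher by 2.77 ± 0.10 and 1.54 ± 0.24. Apoa1 and Apoa5, apolipoprotein genes of a single cluster on chromosome 9, were at 399 and 12.9 in WT Tu but 1348 and 38.0 in CKO Tu, and both were called higher, Apoa1 by 1.77 ± 0.16. Apoa4, the gene of the same cluster best known as a CREB-H target, went the other way: it was at 186, 264 and 237 FPKM in WT DMSO, 159.7, 184 and 199 in WT Tu, against 109, 131 and 112 in CKO Tu. Its difference between CKO Tu and WT Tu was -0.62 ± 0.14 (limma adjusted p = 0.0073). Crp, Insig2 and Elovl2 were the other genes higher in CKO Tu, and Fgf21, Fads1, Fads2 and Vnn1 the others lower. The hepatocyte markers, of which 6 of 8 also rose in this comparison and Alb fell, and the sex of the libraries moved with these differences, and their part was not tested.

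Against WT DMSO, in CKO Tu 10 of the 19 CREB-H targets were higher and 7 lower, with a median of 0.33 beside 0.001 for all tested genes. Thus 89.5% were called, beside 49.5% of all tested genes. Hamp rose by 4.74 ± 0.34, G6pc by 2.47 ± 0.10, Pck1 by 1.73 ± 0.24, Apoa1 by 1.58 ± 0.16 and Apoa5 by 1.49 ± 0.16, whereas Fgf21 fell by 1.22 ± 0.16, Fads2 by 1.00 ± 0.08 and Apoa4 by 0.95 ± 0.14.

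The early secretory genes, of which Sec23a is the known CREB3L2 target, rose nearly throughout in WT cells. Of 17 genes of COPII vesicles, which carry cargo from the ER to the Golgi, and of KDEL receptors, 14 rose, 1 fell and 2 did not pass from WT DMSO to WT Tu, with a median of 0.75; 88.2% were called, beside 33.6% of all tested genes. In CKO Tu against WT Tu 3 were higher, 0 lower and 14 not passed, 17.6% called beside 38.3%, with a median of 0. Sec23a, an inner coat subunit, was at 12.4, 11.9 and 11.3 FPKM in WT DMSO, 24.3, 21.8 and 22.2 in WT Tu, against 33.6, 32.2 and 33.1 in CKO Tu, 3 separate steps as for Creb3l2. Sec23a rose by 0.88 ± 0.06 in WT (limma adjusted p = 1.1e-05) and was higher by 0.52 ± 0.06 in CKO Tu than in WT Tu (limma adjusted p = 0.00027). Kdelr3, a receptor that returns ER proteins, was at 1.78, 2.88 and 2.07 FPKM, then 6.72, 6.66 and 7.92, then 14.1, 13.8 and 9.81 in the same order of groups. It rose by 1.33 ± 0.16 in WT and was higher by 0.73 ± 0.16 in CKO Tu than in WT Tu (limma adjusted p = 0.0067).

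Other coat genes rose under tunicamycin and were not called in CKO Tu against WT Tu. Sec24d, a cargo-binding subunit, was at 18.6 mean FPKM in WT DMSO, 62.2 in WT Tu and 60.8 in CKO Tu, rising by 1.69 ± 0.07 in WT. Its paralogue Sec24b was the 1 gene that fell in WT, by 0.25 ± 0.08, a call lost in 11 of 21 alternatives, and it was the third gene higher in CKO Tu against WT Tu, a call lost in 5. Sec13 and Sar1b did not pass in WT, at 24.9 and 28.1 mean FPKM for Sec13 and 47.8 and 55.0 for Sar1b. The count of genes that rose in WT was 13 to 15 over all alternatives.

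TGACGTGG, the UPR element core, was found in the promoter windows of 3 of the 16 early secretory genes that RefSeq matched, 18.8% beside 1.08% of the matched genes among those tested. The windows belong to Sec23a, Sec24d and Kdelr3, all of them described above, and the search covered both strands. They are shown with 11 bases on each side, on the gene's strand, at chr12:59011993-59012022 (minus), chr3:123267459-123267488 (plus) and chr15:79516367-79516396 (plus), and in Kdelr3 the core reads on the opposite strand.
Sec23a: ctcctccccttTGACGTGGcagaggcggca
Sec24d: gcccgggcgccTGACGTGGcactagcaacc
Kdelr3: tggccgccccgCCACGTCAccgcgcggcca
The shorter TGACGT was found in 9 of the 16, 56.2% beside 13.8% of matched tested genes. Of 17 matched CREB-H targets, 1 (Elovl5) held the full cAMP response element and none the UPR element core. Among the 14 partners, Syvn1 held the ER stress response element, as did 0.219% of matched tested genes. A match describes letters and does not show binding.

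The 3 genes listed as Luman targets all rose in WT, where 33.6% of all tested genes were called and 17.7% were higher. In CKO Tu against WT Tu none was higher and 1 was lower, 33.3% called, near the 38.3% of all tested genes. Herpud1, an ER-associated degradation gene, was at 30.8 mean FPKM in WT DMSO, 787 in WT Tu and 811 in CKO Tu, rising by 4.62 ± 0.15 (limma adjusted p = 1.9e-07). Edem1, which marks misfolded glycoproteins for disposal, went from 14.6 to 82.8 FPKM and was at 82.9 in CKO Tu. Arf4, a Golgi GTPase, went from 78.5 to 132 FPKM and was lower in CKO Tu, at 114, by 0.22 ± 0.05 (limma adjusted p = 0.01). Arf4 overlaps Pde12 on the opposite strand over 5127 bases, and Pde12 was at 8.01, 8.62 and 6.65 mean FPKM. Herpud1 and Edem1 are known as targets of ATF6 and XBP1 as well.

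**Figure D4:**
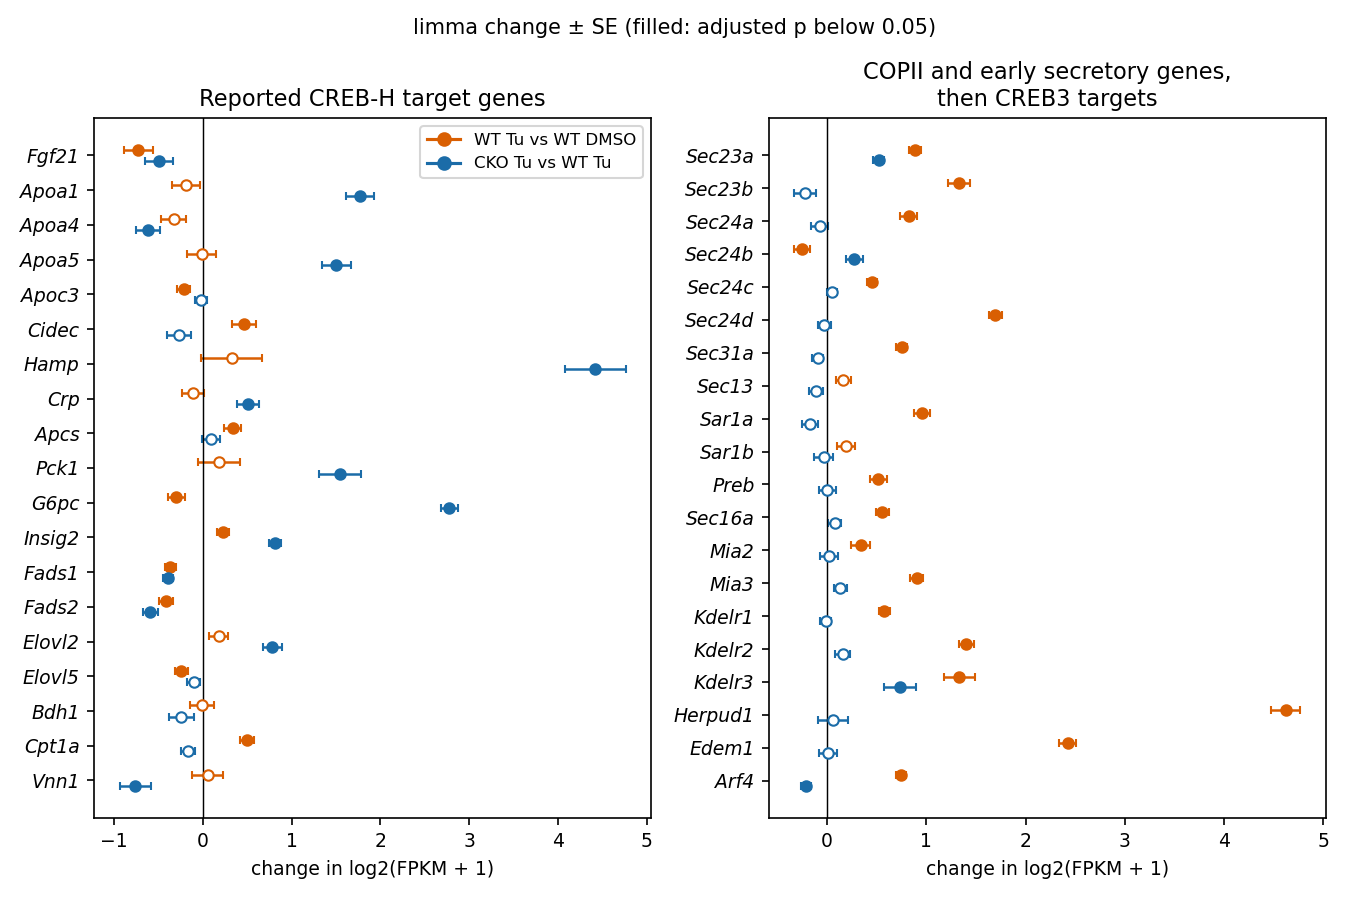
Change in log2(FPKM + 1) ± SE for 19 reported CREB-H targets (left) and for 17 early secretory genes followed by 3 Luman targets (right), WT Tu against WT DMSO in orange and CKO Tu against WT Tu in blue; filled points have a limma adjusted p below 0.05. On the right nearly all orange points are filled and right of 0, and the filled blue points are Sec23a, Kdelr3 and Sec24b to the right of 0 and Arf4 to the left. On the left the blue points spread widely, with Hamp farthest at 4.42.

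Across the 9 libraries Creb3 and Creb3l2 correlated at Pearson r = 0.97 and Creb3l3 with each at -0.78, over libraries that share 3 groups, so these values describe the group steps. The search for like genes covered 6320 tested genes with a mean of at least 5 FPKM, and it left out predicted genes, clone names and pseudogenes. Among these 6320, the gene most like Creb3l2 was Crkl (r = 0.998), an adaptor of tyrosine kinase signalling. Crkl was at 25.5, 33.6 and 37.8 mean FPKM in WT DMSO, WT Tu and CKO Tu. It was followed by Tmem50b, Stx5a, Mlec and Atg13, the last at r = 0.996. Stx5a, the syntaxin of ER-to-Golgi fusion, stood at 4.71, 16.5 and 26.3 mean FPKM, and Mlec, the ER lectin malectin, at 18.3, 38.1 and 53.6. For Creb3 the nearest included Ciapin1 (r = 0.992), Ap2m1, Gbf1 and Isyna1 (r = 0.981); Gbf1, the exchange factor for Golgi ARF proteins, was at 4.26, 6.56 and 8.22. For Creb3l3 they were Manbal (r = 0.977), Fbp1, Thoc6, Cdk9 and Nle1 (r = 0.956); Fbp1, an enzyme of glucose production, was at 89.0, 84.1 and 67.7. These genes were picked for their likeness, and the values are a description.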

How the data were processed

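The authors deposited 1 table of FPKM per gene for the 9 libraries. Alignment used HISAT2 2.2.1 and counting used featureCounts 1.5.0-p3 on mm10, per the submitters' processing notes; the annotation and the strand setting are not given in the sources used here. The FPKM times gene length gave whole fragments for 100% of values within 0.01 fragments, at library sizes 0.948 to 1.07 times the recovered totals. Groups came from the sample labels. The members, gene lists and tests were chosen with earlier results of these data known, so no list gives independent support. Named genes are the members, the listed genes, the checks of knockout and sex, and the 5 genes most like each member, of which 1 is not reported here.

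Genes reaching 1 FPKM in 3 or more libraries entered limma 3.58.1 (R 4.3.3) on log2(FPKM + 1), with 1 mean per group over all 9 libraries and an intensity trend, and Benjamini-Hochberg adjustment. The fit was tested on simulated data. Shares and untested genes had exact permutation tests (scipy 1.17.1). Promoters are RefSeq windows of GRCm38.p6, 250 bases before to 50 after a start, which matched all 3 members. Alternatives covered pseudocount, filter, scaling, spread, pairing, weights, recovered fragments and left-out libraries; removal of a GC trend was chosen after seeing the data.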

Additional observations from a re-analysis of the deposited data

How the results depend on the processing

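Over 21 alternatives, no member changed direction in any of the 3 comparisons, and the total of genes called, over both directions, stayed within 1.5 times the reported one in each comparison. The calls of Creb3l2 in all comparisons, of Creb3 after tunicamycin in WT, and of Creb3 and Creb3l3 in CKO Tu against WT DMSO held throughout. Members gained calls only in CKO Tu against WT Tu. For Creb3l3 the difference was -0.427 with upper-quartile scaling, -0.469 with a weight per library and -0.448 with the GC trend removed, and it ran from -0.532 to -0.304 with each library left out. For Creb3 it was 0.205 with scaling to total fragments and 0.161 with a weight per library, and it ran from 0.121 to 0.207 with each library left out. The cause of these gains was not tested. Among the other listed genes, calls were lost 90, 31 and 32 times and gained 28, 29 and 15 times over all alternatives in WT Tu against WT DMSO, CKO Tu against WT Tu and CKO Tu against WT DMSO, and none reversed.

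Scaling moved the balance of calls. From WT DMSO to WT Tu, 2099 genes were called higher and 1882 lower as deposited (52.7% higher). With scaling to total fragments the split was 1433 to 3121 (31.5% higher), with a shift of -0.108 in the median gene, and with voom on recovered fragments 1497 to 3375 (30.7%), with a shift of -0.136. It was 1738 to 2381 (42.2%) with upper-quartile scaling. In CKO Tu against WT Tu the split was 2213 to 2325 (48.8% higher) as deposited and 2821 to 1979 (58.8%) with voom. The deviations of same-numbered libraries from their group means correlated at -0.1 to 0.02, so the numbers do not pair them. With the replicate number as a block, 3696, 4248 and 5683 genes were called in the 3 comparisons, in place of 3981, 4538 and 5869, and no member's call changed. Depth limits Creb3l1 and Ptgs2, which had too few fragments for a test of modest differences.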
